A study of Mus musculus with 6 samples.

Results

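The genes described here encode receptors for noradrenaline, adrenaline and acetylcholine in heart muscle and the enzymes that turn receptor signals into cyclic AMP. They are the alpha-1 adrenergic receptors Adra1a, Adra1b and Adra1d, the beta adrenergic receptors Adrb1 and Adrb3, the muscarinic receptor Chrm2, the G protein locus Gnas and the adenylyl cyclases Adcy5 and Adcy6. They were found by gene symbol in the deposited gene tables, where all 9 were listed among 17891 named genes. RNA was sequenced from C57BL/6 myocardium, the muscle of the heart, at an age of 6 weeks. There were 3 libraries of wild type (WT) and 3 of NS-DADm mice. NS-DADm mice carry knock-in mutations throughout the body, not in the heart alone, in the deacetylase activating domains of the corepressors NCOR and SMRT. Through these domains the corepressors activate the histone deacetylase HDAC3. The WT mice carry neither mutation. Since point changes in a protein need not alter its RNA level, the corepressor transcripts do not check the labels. The labels do not say that each library came from a separate mouse, so the p-values measure the spread between these libraries.

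Noradrenaline from sympathetic nerves acts on beta receptors of cardiomyocytes. The stimulatory G protein made from Gnas then activates adenylyl cyclase, and cyclic AMP activates protein kinase A, which raises heart rate and force. Acetylcholine from the vagus nerve acts on the muscarinic receptor CHRM2 and an inhibitory G protein, which lowers cyclic AMP and opens potassium channels. Alpha-1 receptors couple to another G protein, Gq, which activates phospholipase C and protein kinase C.

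Total expected counts were 10183792 to 11205221 in WT and 12262523 to 12758311 in NS-DADm, so each NS-DADm library was deeper than each WT library. The libraries also differed in transcripts of the atria. The summed level of 5 atrial markers (Sln, Myl4, Myl7, Bmp10 and Dkk3) was 131, 27.4 and 1963 FPKM in WT libraries 1, 2 and 3 and 1444, 205 and 2382 FPKM in NS-DADm 1, 2 and 3. FPKM is the authors' abundance unit, scaled by feature length and library depth. The libraries WT 3, NS-DADm 1 and NS-DADm 3 were high, and this split crossed the genotypes. The 6 cardiomyocyte markers were abundant in every library, with a summed level of 35280 to 43380 FPKM. Of these edgeR and limma called 0, DESeq2 called 1 and edgeR with the replicate number as a block 1. In the main edgeR fit 3 had an unadjusted p under 0.05. In bulk tissue, fewer cells of a type and less RNA per cell cannot be told apart.

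Both start sites of Adra1b are shown, since it is the receptor gene that fell and has windows in the promoter table of RefSeq (build GRCm38.p6). The table held windows for 5 of the 9 genes, Adcy5 among them. The authors' build is not given in the sources used here, and these windows serve only to show the sequence. Each run is the 250 bases before a RefSeq start, written 5′ to 3′ on the gene's own strand. Capitals mark matches, on either strand, to a GC box bound by Sp1 (GGGCGG), an AP-1 site (TGANTCA), the core of a cyclic AMP response element (TGACG), the full element (TGACGTCA, which contains TGACG) or the core motif of nuclear receptors (AGGTCA).
Adra1b, start nearest to NM_007416, the model with most counts, chr11:43836490-43836739, minus strand: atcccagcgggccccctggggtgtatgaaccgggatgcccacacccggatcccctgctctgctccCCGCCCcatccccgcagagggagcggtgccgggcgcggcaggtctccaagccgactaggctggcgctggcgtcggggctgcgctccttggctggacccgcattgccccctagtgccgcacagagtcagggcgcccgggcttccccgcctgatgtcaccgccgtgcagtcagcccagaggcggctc
Adra1b, upstream start, chr11:43901238-43901487, minus strand: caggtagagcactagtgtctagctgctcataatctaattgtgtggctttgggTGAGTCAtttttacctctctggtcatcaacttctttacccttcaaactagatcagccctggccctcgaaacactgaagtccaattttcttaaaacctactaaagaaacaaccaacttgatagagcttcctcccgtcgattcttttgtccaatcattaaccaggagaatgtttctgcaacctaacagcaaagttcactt

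The window of the main Adra1b start had 1 match, a GC box beginning 185 bases before the start, and a GC content of 72.8%. The upstream Adra1b window had a GC content of 41.6% and 1 AP-1 match 198 bases before the start. The letters of the Adcy5 window (chr16:35154614-35154863, plus strand) are not printed. It held 4 GC boxes, beginning 250, 116, 98 and 48 bases before the start, and had a GC content of 78.0%. The median GC content of all 32851 windows in the table was 52.4%, and 32.7% of them held GGGCGG. Of all windows, 6.75% held TGANTCA, 17.8% TGACG, 1.55% TGACGTCA and 14% AGGTCA. A match is a stretch of letters and was not tested as a binding site. The RefSeq start of the main Adra1b window lay 157 bases upstream of the nearest GENCODE start, and the window lies in an intron of the longer model that begins at the upstream start.

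The RNA of Adcy5, Adra1b and Adra1d was lower in NS-DADm myocardium, and the other genes did not pass the test. Adcy5 fell 1.56-fold, Adra1b 1.42-fold and Adra1d 2.60-fold. Of the 9 genes 8 had enough counts to be tested, of which 3 fell, 0 rose and 5 did not pass. Over all 13130 tested genes 3.2% were called, 1.79% higher and 1.41% lower. The FPKM of the groups did not overlap for 3 of the 8, all lower in NS-DADm. Of all tested genes 23.4% had such groups, 14.5% lower and 8.94% higher. The median log2 fold change of the 8 genes was -0.38, against -0.0031 over all tested genes. These genes were proposed with earlier results of the same data known, so the shares describe them and are not independent support.

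**Figure D1:**
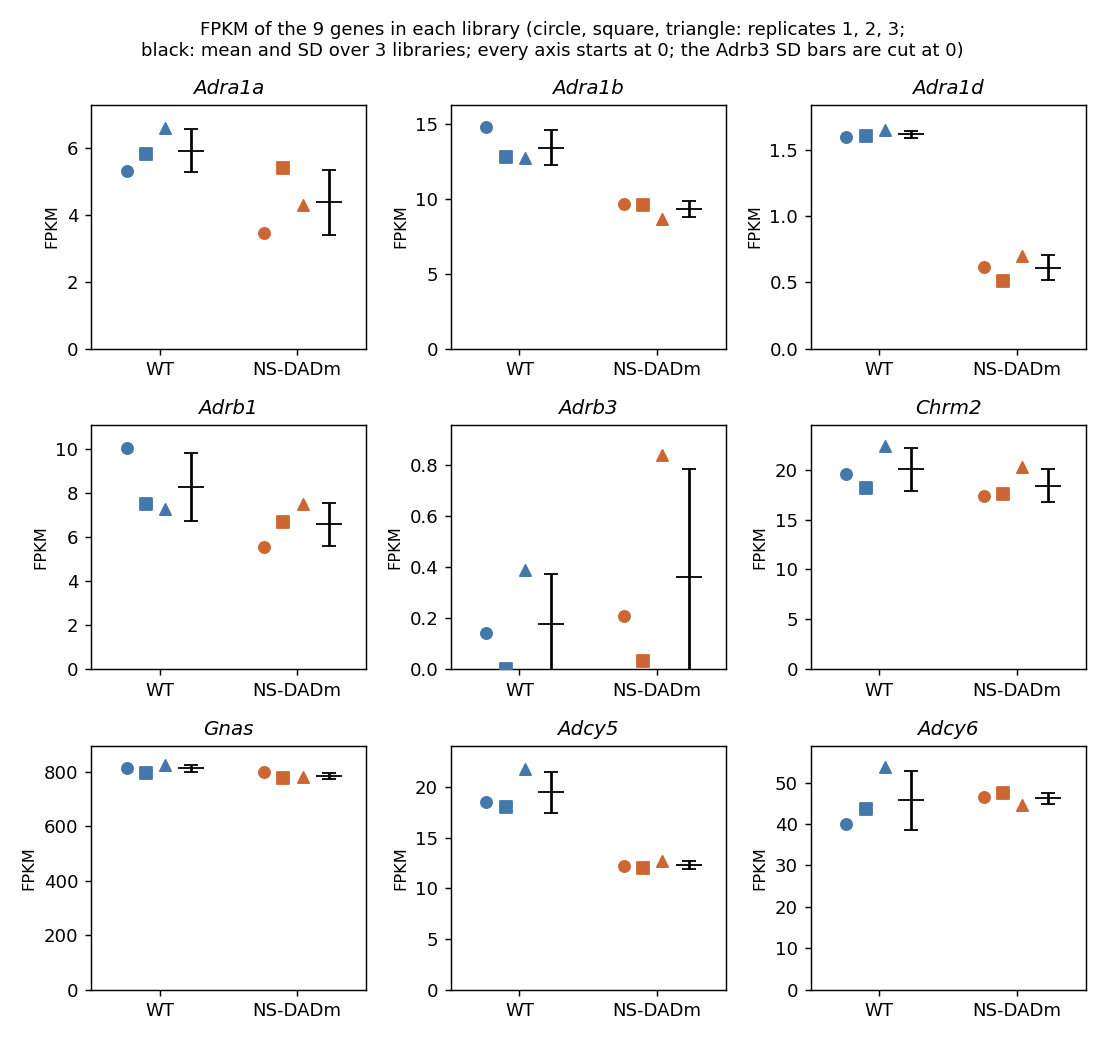
FPKM of each of the 9 genes (vertical axes, starting at 0) in the 3 WT libraries (blue) and the 3 NS-DADm libraries (orange), with the mean and SD over 3 libraries in black. The groups are apart for Adra1b, Adra1d and Adcy5, where all NS-DADm points lie below all WT points, and they overlap for the other 6 genes.

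Levels per gene length (FPKM) differed widely between the genes. Gnas was the most abundant of the 9 genes in WT, at 813 FPKM, above 99.5% of all listed genes. It was followed by Adcy6 at 45.8, Chrm2 at 20.1, Adcy5 at 19.5, Adra1b at 13.4, Adrb1 at 8.25, Adra1a at 5.93, Adra1d at 1.62 and Adrb3 at 0.177 FPKM. Chrm2 and Adcy5 overlapped between libraries in WT, while all other neighbours in this order were apart. The same order held for the NS-DADm means, where Chrm2 (18.4 FPKM) and Adcy5 (12.3 FPKM) were apart and Adra1d (0.610 FPKM) and Adrb3 (0.360 FPKM) overlapped.

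All 3 alpha-1 receptor genes had lower mean FPKM in NS-DADm. ADRA1A and ADRA1B are the alpha-1 receptors of cardiomyocytes, and ADRA1D is best known from the smooth muscle of large arteries. Adra1b (gene ID 11548), the most abundant, stood at 14.76, 12.77 and 12.70 FPKM in WT libraries 1, 2 and 3 and at 9.67, 9.58 and 8.67 FPKM in NS-DADm 1, 2 and 3. The highest NS-DADm library was thus below the lowest WT library. The log2 fold change was -0.50 (SE 0.09) and the adjusted p 0.0185 by the quasi-likelihood test of edgeR, adjusted after Benjamini and Hochberg over all tested genes.

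Adra1d (gene ID 11550) stood at 1.6, 1.61 and 1.65 FPKM in WT, and at 0.62, 0.51 and 0.70 FPKM in NS-DADm. These values rest on 40, 38 and 43 counts in WT and on 18, 15 and 20 in the deeper NS-DADm libraries. The WT libraries were almost level with each other and well above all NS-DADm libraries. This gave a log2 fold change of -1.38 (SE 0.24, adjusted p = 0.0149, edgeR), with a 95% interval of -1.90 to -0.85.

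Adra1a (gene ID 11549) stood at 5.33, 5.84 and 6.61 FPKM in WT, and at 3.47, 5.40 and 4.29 FPKM in NS-DADm. NS-DADm 2 lay above WT 1, so the groups overlapped. The log2 fold change was -0.45 (SE 0.16, 95% interval -0.80 to -0.10) with an unadjusted p of 0.016, and it did not pass after adjustment (adjusted p = 0.159, edgeR). With the replicate number as a block Adra1a passed (adjusted p = 0.0359 by edgeR, log2 fold change -0.46), but the numbers were not shown to pair the libraries.

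Summed over the 3 subtypes, alpha-1 receptor RNA was 21.0 ± 0.735 FPKM (SD, n = 3) in WT and 14.3 ± 1.03 FPKM in NS-DADm (SD, n = 3), 31.8% lower. The 2-sided exact permutation test gave p = 0.1, the smallest p that 3 against 3 libraries allow. Adra1d made up 7.38%, 7.96% and 7.87% of this sum in WT libraries 1, 2 and 3 and 4.51%, 3.29% and 5.12% in NS-DADm 1, 2 and 3. This share was lower in 3 of 3 NS-DADm libraries (7.74% ± 0.315 against 4.31% ± 0.932, SD, exact permutation p = 0.1, adjusted over 5 such shares and ratios 0.25). The share of Adra1b overlapped between the groups, at 63.9% ± 3.79 in WT and 65.2% ± 4.47 in NS-DADm (SD, exact permutation p = 0.6, adjusted p = 0.6).

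**Figure D2:**
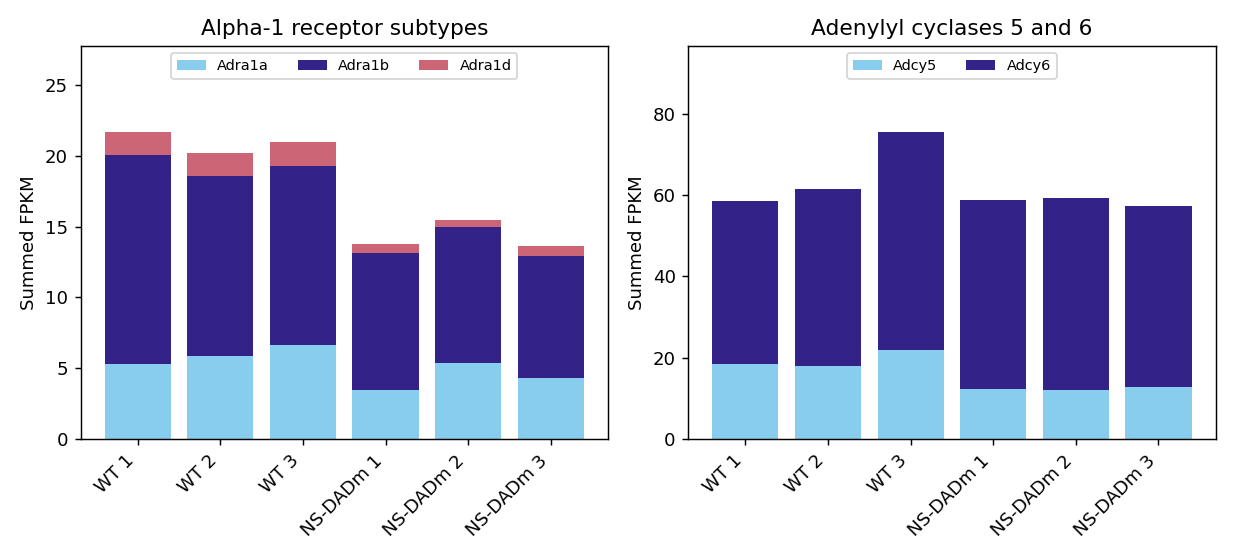
Left, FPKM of Adra1a, Adra1b and Adra1d stacked for each library. Right, the same for Adcy5 and Adcy6. The alpha-1 stacks are 20.2 to 21.7 FPKM high in WT and 13.7 to 15.5 FPKM high in NS-DADm, and the Adcy5 segment is smaller in each NS-DADm library while the Adcy6 segment overlaps.

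Calls for Adra1b and Adra1d each ended without WT 1, WT 2 or NS-DADm 1. The adjusted p of Adra1b was then 0.0631, 0.0584 and 0.0528, and that of Adra1d 0.0553, 0.0654 and 0.0528 (edgeR). Among the libraries with low atrial levels (WT 1, WT 2 and NS-DADm 2), a split chosen after the data were seen, Adra1b had a log2 fold change of -0.48 and Adra1d of -1.62. Among those with high levels (WT 3, NS-DADm 1 and NS-DADm 3), the values were -0.44 and -1.28. Each of these subsets has 1 genotype with a single library, so only the fold changes are given. The 5 vascular smooth muscle markers had 0 called with edgeR, DESeq2 or limma, and 2 at an unadjusted p under 0.05. These were Myh11 and Cnn1, named after their values were seen. Both were higher in NS-DADm (log2 fold change 0.49 and 1.32). Of the 5 markers 2 had a negative log2 fold change, and the median was 0.488. The summed level of the 5 was 87.0 to 115 FPKM in WT and 97.5 to 132 FPKM in NS-DADm, and Acta2, Smtn and Tagln were the most abundant. The groups overlapped in this sum.

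Adrb1, the main beta receptor of cardiomyocytes, did not pass. Adrb1 (gene ID 11554) stood at 10.02, 7.47 and 7.27 FPKM in WT, and at 5.53, 6.69 and 7.49 FPKM in NS-DADm. NS-DADm 3 lay above WT 2 and WT 3, and WT 1 was the highest library. Its log2 fold change was -0.30 (SE 0.15, 95% interval -0.63 to 0.02, adjusted p = 0.311, edgeR), so a fall of the size seen for Adra1b lies inside the interval.

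Adrb3, a beta receptor best known from fat cells, was near the limit of detection and was not tested. Adrb3 (gene ID 11556) had 4, 0 and 12 counts in WT libraries 1, 2 and 3 and 7, 1 and 28 in NS-DADm 1, 2 and 3. The 95% Poisson interval ran from 18.6 to 40.5 counts for NS-DADm 3 and from 0 to 3.69 for WT 2, counting error only. As FPKM the levels were 0.14, 0, 0.39, 0.21, 0.03 and 0.84 in the same order. The genotypes overlapped and the spread lay within them.

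Adrb3 levels ran in the same order over the 6 libraries as the summed level of 6 adipocyte markers (Adipoq, Plin1, Cidec, Ucp1, Cfd and Lep). Single markers did not all keep that order, and Lep, the hormone leptin, was highest in WT 1 (0.82 FPKM) and lowest in NS-DADm 3 (0.03 FPKM). The summed marker level was 8.76, 3.05 and 66.9 FPKM in WT libraries 1, 2 and 3 and 44.2, 6.84 and 231 FPKM in NS-DADm 1, 2 and 3. The most abundant were Cfd, Adipoq and Cidec, and Lep and Ucp1 are named after their values were seen. Adipoq, the fat cell hormone adiponectin, stood at 25.4 FPKM in NS-DADm 3 and at 0.51 FPKM in WT 2. Ucp1, the uncoupling protein of brown fat, stood at 23.6 FPKM in NS-DADm 3, at 1.69 in NS-DADm 1, at 0.68 in WT 3 and at 0 in the other 3 libraries. Of these markers 5 were tested and 0 called (edgeR, DESeq2 and limma), and 1 had an unadjusted p under 0.05 (edgeR). With the replicate number as a block 4 of these 5 were called, but the numbers were not shown to pair the libraries. The summed atrial markers ran in the order of Adrb3 too, except that NS-DADm 2 (205 FPKM) stood above WT 1 (131 FPKM). These libraries had 1 and 4 Adrb3 counts. The part of fat cells or of atrial tissue in the Adrb3 level was not tested. Adrb1 made up 94.9% to 100% of the summed FPKM of Adrb1 and Adrb3 in WT (97.8% ± 2.63, SD) and 89.9% to 99.6% in NS-DADm (95.3% ± 4.91, SD; exact permutation p = 0.6, adjusted p = 0.6).

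**Figure D3:**
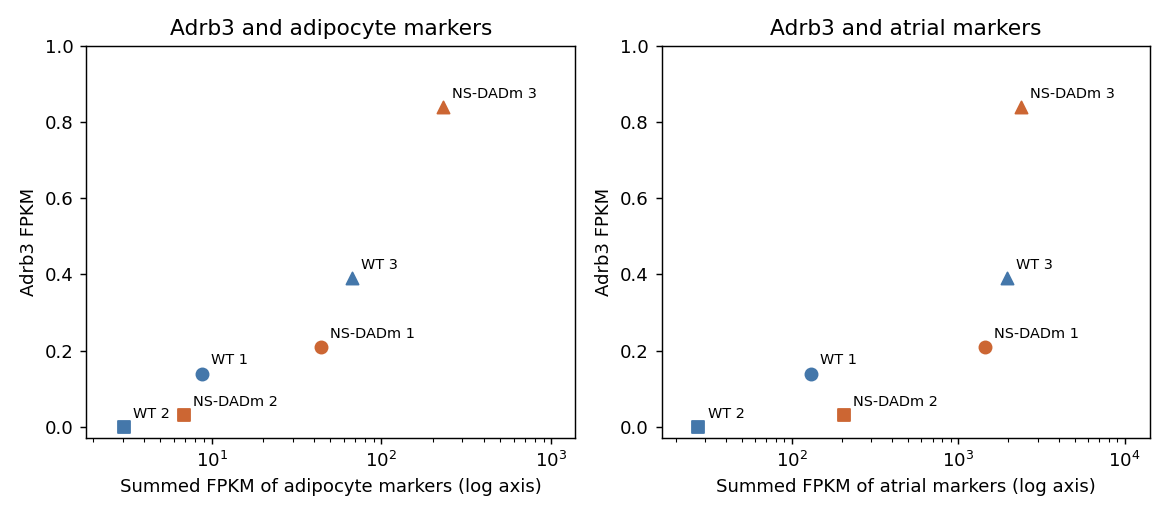
FPKM of Adrb3 (linear vertical axes) against the summed FPKM of 6 adipocyte markers (left) and 5 atrial markers (right), with log horizontal axes and 1 point per library (blue WT, orange NS-DADm). NS-DADm 3 is highest on all 3 measures and WT 2 is lowest on all 3.

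Chrm2, the muscarinic receptor that slows the heart, did not pass. Chrm2 (gene ID 243764) stood at 19.63, 18.16 and 22.39 FPKM in WT, and at 17.38, 17.60 and 20.32 FPKM in NS-DADm. In each genotype the third library, which had the highest atrial marker level, had the most Chrm2. NS-DADm 1, also of high atrial level, had the least Chrm2 of all libraries. Between the genotypes the log2 fold change was -0.10 (SE 0.10, 95% interval -0.31 to 0.11, adjusted p = 0.649, edgeR). With the atrial score as a covariate it was -0.17 (adjusted p = 0.371, edgeR). The log2 ratio of Chrm2 to Adrb1 was 1.29 ± 0.326 in WT and 1.5 ± 0.137 in NS-DADm (SD, exact permutation p = 0.4, adjusted p = 0.6), and the groups overlapped.

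Gnas did not differ detectably as a whole. Gnas (gene ID 14683) encodes the stimulatory alpha subunit and, from other starts of an imprinted locus, further transcripts. It stood at 814.67, 797.80 and 826.17 FPKM in WT, and at 798.55, 779.40 and 780.46 FPKM in NS-DADm. NS-DADm 1 lay above WT 2. The log2 fold change was -0.0060 (SE 0.06, 95% interval -0.13 to 0.12, adjusted p = 0.973, edgeR), and a fall of the size of that of Adcy5 lies outside this interval.

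The deposited transcript tables split Gnas into 8 models. NM_001077510 took 45% to 54.9% of its counts, and the groups overlapped (exact permutation p = 0.3). NM_201616, whose GENCODE start lies 83 bases downstream, took 24.0%, 24.2% and 23.3% in WT, against 24.5%, 27.8% and 25.9% in NS-DADm. Its groups did not overlap (exact permutation p = 0.1, the smallest possible), while its level did not pass (log2 fold change 0.12, adjusted p = 0.551, edgeR). NR_003258, which GENCODE lists as a processed transcript without a coding region starting 2307 bases upstream, took 30.2%, 25.8% and 25.9% in WT, against 26.0%, 16.7% and 20.6% in NS-DADm. These shares overlapped between the groups (exact permutation p = 0.3). NM_001310083, which starts 2238 bases upstream, took 0.446% to 0.669%, and the other 4 models at most 0.0495% in any library. NR_003258 had the largest mean difference of the 4 Gnas models tested (253 ± 23.2 FPKM in WT against 191 ± 43.3 in NS-DADm, SD, log2 fold change -0.38, adjusted p = 0.488, edgeR). The models share downstream exons, so the split is the authors' estimate.

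Adra1b and Adra1a also had several models. NM_007416 took 93.9% to 100% of the Adra1b counts, and NM_001284380, which starts 64878 bases upstream, took the rest. For Adra1a the counts went mainly to NM_001271759 (37.7% to 54.7%) and NM_013461 (40.4%, 41.0% and 50.3% in WT, against 31.6%, 24.0% and 37.0% in NS-DADm). NM_001271760 took 0% to 27.1% and NM_001271761 4.3% to 11.4%. NM_013461 stood at 2.45 ± 0.641 FPKM in WT against 1.20 ± 0.222 in NS-DADm (SD, log2 fold change -1.0, SE 0.25, adjusted p = 0.248, edgeR). Of 15 tested transcripts of the 9 genes 0 were called with edgeR, 4 had an unadjusted p under 0.05, and 0.0972% of all tested transcripts were called, 0.0514% higher and 0.0457% lower. No other tool was run on transcripts. In simulated data this test called 4.3% of transcripts changed 1.5-fold and 21.4% of those changed 2-fold. The 0 calls therefore do not show that these transcripts were unchanged. The lowest adjusted p, 0.0915, was that of the single Adcy5 transcript.

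Adcy5 fell while Adcy6 did not pass. These closely related, calcium-inhibited cyclases are the main ones of cardiomyocytes. Adcy5 (gene ID 224129) stood at 18.55, 18.03 and 21.78 FPKM in WT, and at 12.20, 11.99 and 12.73 FPKM in NS-DADm. The 3 NS-DADm libraries lay close together and well below the lowest WT library. The log2 fold change was -0.64 (SE 0.08, 95% interval -0.81 to -0.46, adjusted p = 0.00259, edgeR). The call held without each library in turn (adjusted p 0.00358 to 0.0166, edgeR).

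Adcy6 (gene ID 11512) stood at 40.05, 43.53 and 53.74 FPKM in WT, and at 46.53, 47.37 and 44.68 FPKM in NS-DADm. All NS-DADm values lay inside the WT range, whose highest library was WT 3. The log2 fold change was 0.04 (SE 0.10, 95% interval -0.18 to 0.25, adjusted p = 0.887, edgeR).

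Within each library, Adcy5 made up 31.7%, 29.3% and 28.8% of the summed FPKM of Adcy5 and Adcy6 in WT and 20.8%, 20.2% and 22.2% in NS-DADm. The share was lower in 3 of 3 NS-DADm libraries (29.9% ± 1.51 against 21.1% ± 1.02, SD, exact permutation p = 0.1, the smallest possible, adjusted 0.25). The sum itself overlapped, at 65.2 ± 9.04 FPKM in WT against 58.5 ± 0.995 in NS-DADm (SD, exact permutation p = 0.3). Among libraries with low atrial levels the log2 fold change of Adcy5 was -0.57 and among those with high levels -0.78, and Adcy6 had 0.22 and -0.21. These values again rest on a single library of 1 genotype, so only the fold changes are given, and their difference was not tested.

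**Figure D4:**
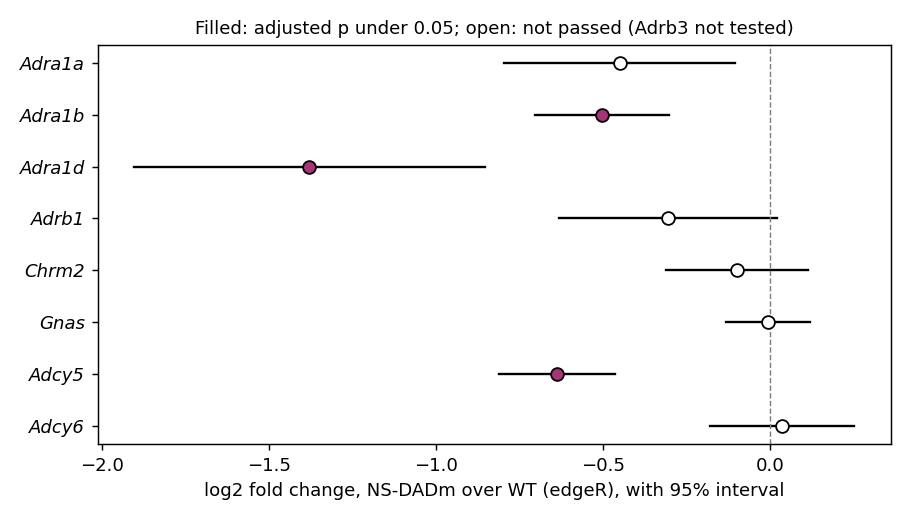
Log2 fold change of the 8 tested genes, NS-DADm over WT, from edgeR's quasi-likelihood test, with 95% intervals as bars. Filled points passed an adjusted p of 0.05 (Adra1b, Adra1d and Adcy5), and open points did not.

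Around these genes, 139 listed genes in 11 lists of the same pathways were followed, of which 128 were tested, 2 rose, 5 fell and 121 did not pass. That is 5.47% called, against 3.2% of all tested genes, with a median log2 fold change of -0.03. Other receptors were scarce: of 7 further adrenergic and muscarinic receptor genes 6 were listed, 2 had enough counts to be tested and 0 were called (edgeR, DESeq2 and limma; 0 had an unadjusted p under 0.05). Chrm3, a receptor that couples to Gq, stood at 0.427 ± 0.158 FPKM in WT against 0.293 ± 0.142 in NS-DADm (SD), and Adra2b at 0.343 ± 0.0764 and 0.350 ± 0.07.

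Among other adenylyl cyclases Adcy7 rose and the other 4 tested did not pass. Adcy7, a cyclase abundant in blood and immune cells, stood at 2.83, 2.71 and 2.71 FPKM in WT, and at 3.55, 3.51 and 3.37 FPKM in NS-DADm (adjusted p = 0.0482 by edgeR, log2 fold change 0.36). The groups did not overlap, but the call ended without any 1 library (adjusted p up to 0.166, without WT 2) and with DESeq2 (0.173), limma on log2(FPKM + 1) (0.149) and the atrial covariate (0.0747). Of 5 macrophage markers 2 rose and the other 3 had positive fold changes that did not pass. Those that rose were C1qa (60.3 ± 2.31 against 83.7 ± 3.94 FPKM, SD) and C1qb (50.8 ± 0.61 against 72.2 ± 8.08). Their summed level was 129 to 136 FPKM in WT and 167 to 191 FPKM in NS-DADm. The part of macrophages in the Adcy7 level was not tested. Leaving out WT 2 ended the call of C1qb (adjusted p = 0.0558, edgeR).

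Of 19 tested subunits of other heterotrimeric G proteins, 1 fell and 18 did not pass, with a median log2 fold change of -0.06. Gnb5, the beta subunit that pairs with RGS proteins of the R7 family, stood at 12.94, 13.32 and 12.91 FPKM in WT, and at 10.73, 9.16 and 10.04 FPKM in NS-DADm (adjusted p = 0.043 by edgeR, log2 fold change -0.36). Its call ended without any 1 library (adjusted p up to 0.151, without WT 2), with DESeq2 (0.099), with limma (0.0546 and 0.0533) and with the atrial covariate (0.0677). Gnai1, an inhibitory alpha subunit chosen after its values were seen, had a log2 fold change of -0.94 and did not pass (adjusted p = 0.0666, edgeR), but passed with DESeq2 (0.0492), the replicate block (0.0243) and the atrial covariate (0.0265). Of 14 regulators of G protein signalling, which speed the switching off of G proteins, 0 were called with edgeR or limma, 3 had an unadjusted p under 0.05 and DESeq2 called 2. Rgs5, abundant in pericytes, stood at 214 ± 16.4 FPKM in WT against 167 ± 14.6 in NS-DADm (SD, adjusted p = 0.0793, edgeR), and Gpsm1 at 60.5 ± 2.38 and 64.8 ± 0.265. Rgs5 passed with DESeq2 (0.0069), with the replicate block (0.0043), without WT 3 (0.0458) and without NS-DADm 2 (0.0434). Rgs6, also chosen after its values were seen, had a log2 fold change of -0.74 and did not pass (adjusted p = 0.0647, edgeR), but passed with DESeq2 (0.00284), the replicate block (0.0107) and the atrial covariate (0.00906).

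Receptor kinases and arrestins, which switch off and remove active receptors, had 0 of 7 called (edgeR, DESeq2 and limma; 1 had an unadjusted p under 0.05). The kinase gene Adrbk1 stood at 23.4 ± 1.15 FPKM in WT against 24.5 ± 2.12 in NS-DADm (SD, 95% interval of the log2 fold change -0.09 to 0.27), and Grk6 at 9.59 ± 0.48 and 9.43 ± 0.419.

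Among 17 phosphodiesterases, which break down cyclic nucleotides, Pde1c fell and 16 did not pass, with a median log2 fold change of 0.02. Pde1c, which is activated by calcium and calmodulin, stood at 12.15, 13.66 and 13.87 FPKM in WT, and at 9.10, 7.12 and 7.67 FPKM in NS-DADm. All NS-DADm libraries lay below all WT libraries (adjusted p = 0.00224 by edgeR, log2 fold change -0.76, SE 0.09). The call held without each library in turn (adjusted p up to 0.0214).

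Of 23 genes of protein kinase A, its anchors and other cyclic AMP receptors, 1 rose and 22 did not pass, with a median log2 fold change of -0.07. Popdc3, a membrane protein that binds cyclic AMP, stood at 14.94, 13.75 and 15.87 FPKM in WT, and at 21.18, 19.44 and 21.93 FPKM in NS-DADm (adjusted p = 0.0106 by edgeR, log2 fold change 0.51, SE 0.08). It lost the call without WT 2 (adjusted p = 0.0565). DESeq2 and the replicate block each called 2 genes of this list. The second was Akap5 with DESeq2 and Prkar2b with the block, both chosen after their values were seen. Akap5, an anchor of protein kinase A, stood at 0.74, 1.11 and 0.59 FPKM in WT, and at 0.37, 0.30 and 0.48 FPKM in NS-DADm, without overlap (log2 fold change -1.07, adjusted p = 0.0761 with edgeR and 0.0359 with DESeq2). Prkar2b, a regulatory subunit, had an adjusted p of 0.296 with edgeR and 0.0042 with the block. Unlike Akap5 its mean was higher in NS-DADm (log2 fold change 1.29, edgeR). It stood at 1.41, 0.57 and 2.19 FPKM in WT and at 2.62, 0.95 and 6.61 FPKM in NS-DADm, with overlap. Except that WT 3 and NS-DADm 1 changed places, Prkar2b ran in the order of the summed adipocyte markers. It was highest in WT 3, NS-DADm 1 and NS-DADm 3, the libraries of high atrial level. The part of fat cells or of atrial tissue in the Prkar2b level was not tested.

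Among 12 substrates of protein kinase A in heart muscle, Mybpc3, a thick filament protein, fell from 925 ± 11.9 to 759 ± 20.2 FPKM (SD, log2 fold change -0.26, adjusted p = 0.0366, edgeR), and 11 did not pass. The call of Mybpc3 ended without any 1 library (adjusted p up to 0.164, without WT 2). DESeq2 and the block each called 2 genes here. The second was Ryr2, the calcium release channel, chosen after its values were seen, at 99.9 ± 11.1 FPKM in WT against 81.3 ± 7.47 in NS-DADm (SD, log2 fold change -0.28, adjusted p = 0.142 with edgeR, 0.0434 with DESeq2 and 0.0103 with the block). Its groups did not overlap. The CREB family and its coactivators, which carry the cyclic AMP signal to genes, had 0 of 9 called (edgeR, DESeq2 and limma; 1 had an unadjusted p under 0.05), with Atf1 at 24.9 ± 0.518 and 25.2 ± 0.837 FPKM and Creb3 at 14.9 ± 0.648 and 15.8 ± 1.94.

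**Figure D5:**
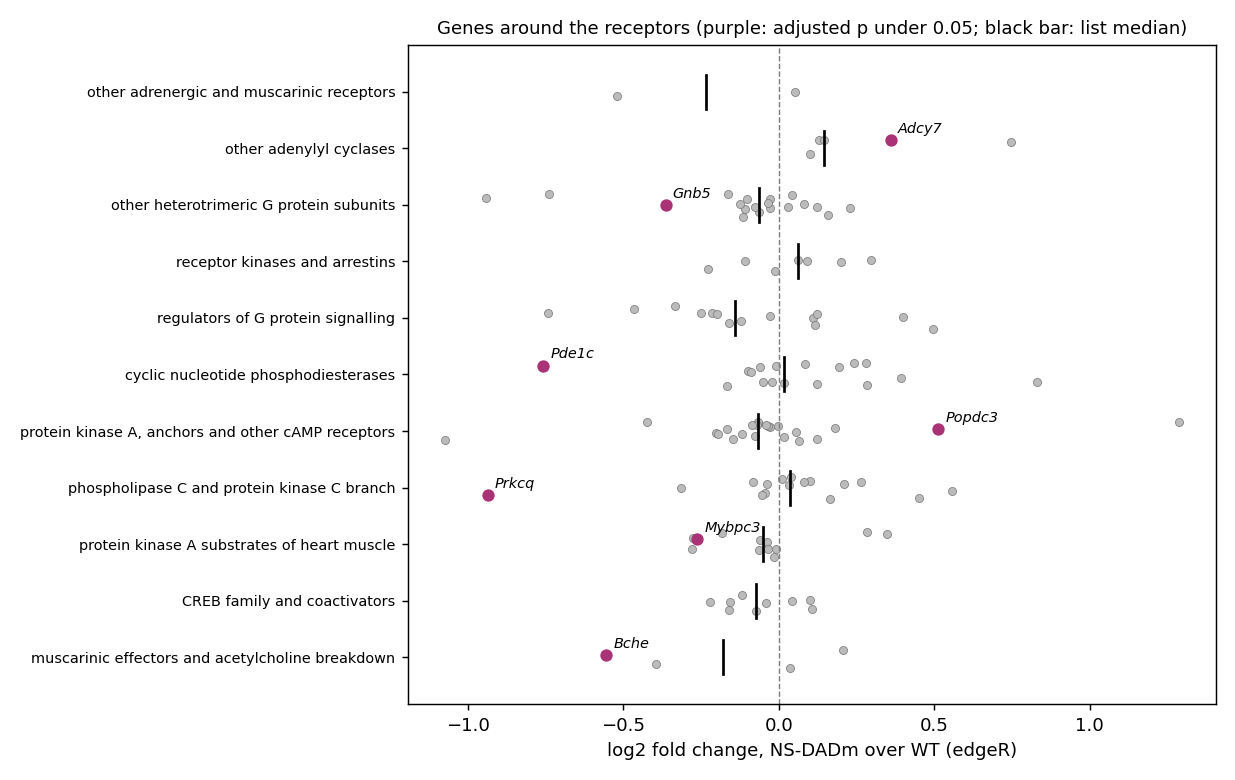
Log2 fold change, NS-DADm over WT, of the 128 tested pathway genes in 11 lists (points, with small vertical scatter), where purple points passed an adjusted p of 0.05 and black bars are list medians. The 7 called genes are labelled, and list medians lie between -0.23 and 0.145.

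On the branch below alpha-1 receptors, 1 of 16 phospholipase C, protein kinase C and inositol trisphosphate receptor genes fell. Prkcq, the theta isoform of protein kinase C, stood at 2.98, 2.82 and 2.39 FPKM in WT, and at 1.42, 1.21 and 1.58 FPKM in NS-DADm (adjusted p = 0.0185 by edgeR, log2 fold change -0.94, SE 0.17). Leaving out any of WT 1, WT 2, NS-DADm 1 and NS-DADm 2 ended its call (highest adjusted p 0.0902).

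On the muscarinic side, 1 of 4 genes of effectors and acetylcholine breakdown fell. Bche, an esterase that splits acetylcholine, stood at 5.89, 6.34 and 6.22 FPKM in WT, and at 3.52, 4.20 and 4.64 FPKM in NS-DADm (adjusted p = 0.0196 by edgeR, log2 fold change -0.55, SE 0.10). Leaving out WT 1, WT 2 or NS-DADm 1 ended its call (highest adjusted p 0.0929), as did limma (0.0533 and 0.0534). The muscarinic potassium channel genes Kcnj3 and Kcnj5, named after their values were seen, did not pass (adjusted p = 0.961 and 0.104, edgeR). Kcnj3 stood at 26.76, 28.25 and 46.05 FPKM in WT, and at 30.29, 23.27 and 48.88 FPKM in NS-DADm, highest in the third library of each genotype. Kcnj5 stood at 17.51, 21.15 and 22.45 FPKM in WT, and at 16.78, 12.64 and 16.38 FPKM in NS-DADm, all below the WT libraries (log2 fold change -0.40, SE 0.12, 95% interval -0.65 to -0.14). It passed with DESeq2 (0.0253), the replicate block (0.0485) and the atrial covariate (0.0275), and not with limma (0.149 and 0.15) or without any 1 library (0.0807 to 0.308).

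Marker transcripts of the neurons that supply the ligands were scarce, and the cell source of these transcripts was not tested. Of 6 sympathetic neuron markers 2 were tested, and Dbh, which makes noradrenaline, fell from 0.92, 1.47 and 1.53 FPKM to 0.51, 0.14 and 0.48 FPKM (adjusted p = 0.047 by edgeR, log2 fold change -1.77, SE 0.41). The call ended without any 1 library (adjusted p up to 0.166, without WT 2). Th, which makes its precursor dopa and was named after its values were seen, was at 0 in the WT libraries and NS-DADm 2 and had 8 and 7 counts in NS-DADm 1 and 3. Slc18a2, the vesicular monoamine transporter, stood at 1.31 to 2.41 FPKM in the WT libraries and 1.17 to 1.58 FPKM in NS-DADm and did not pass (adjusted p = 0.477, edgeR). Npy, another marker of this list, had too few counts for a test. It stood at 0, 0 and 0.17 FPKM in WT and at 1.1, 0 and 0.96 FPKM in NS-DADm. Its mean was thus higher in NS-DADm, unlike that of Dbh, and the groups overlapped. The 3 markers of parasympathetic neurons had a summed level of at most 0.38 FPKM. Schwann cell markers had 0 of 4 called (edgeR, DESeq2 and limma; 2 had an unadjusted p under 0.05), with a summed level of 12.0 to 12.8 FPKM in WT and 8.51 to 10.8 FPKM in NS-DADm. Fibroblast markers had 0 of 5 called with edgeR (2 had an unadjusted p under 0.05, DESeq2 called 1, the replicate block 2 and limma 0). Endothelial markers had 0 of 5 called with edgeR, DESeq2 or limma, and 1 had an unadjusted p under 0.05. The part of these cells in the receptor levels was not tested.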

How the data were processed

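The authors deposited expected counts and FPKM for genes and for transcripts of each library, as the file headers name them. HISAT stands in the submitters' processing notes. No estimator, build or annotation is given in the sources used here. Of the listed genes of a library, 10.8% to 11.6% had counts that were not whole. Tables list features with an FPKM of at least 0.01, and an unlisted gene was taken as 0. Rows without a symbol (1, at most 0.00032% of counts) were left out.

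Counts were rounded, filtered with filterByExpr, scaled by TMM and tested with edgeR 4.0.16 (R 4.3.3), adjusted by Benjamini-Hochberg over all 13130 tested genes (17498 transcripts), threshold 0.05. The common biological coefficient of variation was 0.106. Standard errors came from the fold change and test statistic, and 95% intervals from the test's degrees of freedom. Shares and ratios were compared by exact permutation, 2-sided. Alternatives used DESeq2 1.42.0, limma 3.58.1 on log2(FPKM + 1) and log2(FPKM + 0.1), other scaling and filters, a mean FPKM minimum of 1, a looser threshold of 0.1, an atrial score (mean log2 CPM of 5 markers), a replicate block and leaving out each library. In simulated data of 13130 genes, 47.5% of genes changed 1.5-fold, 83.8% of those changed 2-fold and 97.2% of those changed 4-fold were called, and false calls were 7.7% of calls. With 17498 simulated transcripts these shares were 4.3%, 21.4% and 48.6%, and false calls were 1.9% of calls.

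The 9 genes, the pathway and marker lists and the alternatives were chosen with earlier results of these data known. All 9 genes are named. From each pathway list the called genes are named, up to 6, or else the 2 most abundant, and from marker lists the 3 most abundant and any called, where a result touches them. No 2 libraries were duplicates (chi-square per gene 3.45 to 17.9). Protein sequences and the promoters of the other 4 genes were not used here.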

Additional observations from a re-analysis of the deposited data

How the results depend on the processing

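Over all genes, the count of 420 changed genes became 272 and 267 with limma on log2(FPKM + 1) and log2(FPKM + 0.1), 820 at a threshold of 0.1, and 121 to 379 without each library in turn, lowest without WT 2. Only the libraries of high atrial level gave 1 and those of low atrial level 916, fits with a single WT or a single NS-DADm library. The count of 17 changed transcripts became 3 to 7 without each library. Of the 9 genes 3 were called, and 1 to 3 without each library (1 without WT 1, WT 2 or NS-DADm 1). The count stayed at 3 in the other settings that used all libraries, except the block. With expected counts in place of FPKM, the difference in the Adra1d share was -2.41 percentage points in place of -3.43, since counts are not divided by length. Without each library the log2 fold change of Gnas ran from -0.018 to 0.0060 and that of Adcy6 from -0.052 to 0.16. Signs changed for genes near 0: Gnas to 0.0023 without WT 3, 0.0060 without NS-DADm 3 and 0.024 in the libraries of low atrial level, and Adcy6 to -0.015 with the atrial covariate, -0.052 without WT 1 and -0.21 in the libraries of high atrial level. Adra1b had log2 fold changes of -0.55 to -0.43 without each library, Adra1d -1.48 to -1.27 and Adcy5 -0.68 to -0.56.

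The labels number the replicates alike but state no pairing, so the main fit did not pair the libraries. Deviations of same-numbered libraries correlated at -0.05, 0.33 and 0.40, and 4 of 6 libraries correlated best with their own number. These values do not settle whether the libraries were paired. With the replicate block 895 genes, 2 transcripts and 4 of the 9 genes were called, Adra1a being the addition. Adrb3, with at most 28 counts, was below the depth needed for a test.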
